A study of Mus musculus with 16 samples.

Results

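The genes described here are 10 feedback genes of the ERK pathway, taken by name as Etv4, Etv5, Etv6, Dusp4, Dusp5, Dusp6, Spry1, Spry2, Spry4 and Spred1, out of 45513 genes counted. All 10 were found by symbol and all 10 were among the 15841 genes with enough counts to be tested. They were named with their levels in tdTom+ and tdTom− cells of these same libraries known, so that contrast is given for them as a description, with no p-value, and the count of members past the threshold of the fit over all genes is set beside the share of all genes and supports nothing. The colon epithelium of 8 Atoh1(WT)CreERT2; R26RtdTom mice was sorted by flow cytometry for live EpCAM+ cells, a tdTom+ and a tdTom− population from every mouse, giving 16 RNA-seq libraries with 8 of each population. In this line the tamoxifen-dependent recombinase CreERT2 is made from the Atoh1 locus, so a cell that makes Atoh1 at the time of tamoxifen switches on tdTom and keeps it in its progeny. Both populations carried the same alleles and came from animals given 1 mg tamoxifen per day on 3 days, per the labels. The tdTom mark thus stands for Atoh1 expression at the time of tamoxifen, in a cell or its forebears, and not for a treatment. A tdTom− cell may have expressed Atoh1 at an earlier time. The study's methods describe its mice as young adults of both sexes on a C57BL/6 background.

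Growth factor receptors act through RAS, RAF, MEK and ERK, and active ERK switches on genes whose products dampen the same pathway. The ETS factors Etv4 and Etv5 are transcriptional outputs of ERK, the dual-specificity phosphatases remove the activating phosphates from ERK, and Sprouty and Spred proteins act further up, near the receptor, RAS and RAF. In the intestinal crypt, ERK signalling downstream of EGF is known for its role in proliferation, and the levels of these genes are commonly read as a record of recent ERK activity.

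Atoh1 itself, the check of the sort, lay at 102 to 166 CPM in tdTom+ libraries and at 3.18 to 8.89 CPM in tdTom− libraries. CPM here is the read count of a gene as a share of the library size, in parts per 1e6, with library sizes normalised by the TMM method of edgeR. All 8 goblet cell markers were higher and all 8 markers of absorptive colonocytes lower in tdTom+ cells at the threshold used throughout, a Benjamini-Hochberg adjusted p under 0.01 in the quasi-likelihood test of edgeR. In the other epithelial lists no marker was higher, and tdTom+ cells were lower in 6 of 7 stem cell markers tested, 4 of 8 cell cycle markers, 6 of 7 tuft cell markers and 7 of 8 enteroendocrine markers. Among all genes tested 51% passed, 25.5% as higher and 25.5% as lower. The cell cycle markers passed at 50%, near the share of all genes, and nothing is read from their count. Immune markers summed to 1.98 to 5.05 CPM in tdTom+ and 4.63 to 28.1 CPM in tdTom− libraries, and stromal markers to 4.96 to 11.5 and 7.68 to 20.7 CPM, with Lum at 0 throughout. Total counts ran from 16482530 to 24218367 in 15 libraries and reached 45791503 in the tdTom− library of mouse 4. In such sorted mixtures fewer cells of a type and less RNA per cell cannot be told apart, and the part that cell composition plays in the levels below was not tested.

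The bases just before the start of a gene are shown for 3 members. Etv5 was the member with the greatest difference between populations. Dusp5 and Spry2 were those correlated with the immediate early genes between mice by Pearson's r, though not by rank, in a comparison added after the data were seen. RefSeq promoter entries (GRCm38.p6) matched 7 of the 10 members, with no entry used for Etv4, Dusp4 or Spry4. The 250 bases before each RefSeq start were searched on both strands, and the stretch printed, in the direction of transcription, ends where the gene begins in the deposited files. Capitals mark the letters of motifs found.
Etv5, chr16:22439720-22439820, minus strand: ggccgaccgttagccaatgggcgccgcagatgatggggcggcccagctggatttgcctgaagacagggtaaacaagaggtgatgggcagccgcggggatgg
Dusp5, chr19:53528895-53529108, plus strand: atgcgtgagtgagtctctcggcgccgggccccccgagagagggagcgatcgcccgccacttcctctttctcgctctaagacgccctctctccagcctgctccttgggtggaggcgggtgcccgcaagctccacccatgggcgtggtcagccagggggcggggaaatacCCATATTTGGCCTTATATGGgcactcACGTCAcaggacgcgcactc
Spry2, chr14:105896820-105897069, minus strand: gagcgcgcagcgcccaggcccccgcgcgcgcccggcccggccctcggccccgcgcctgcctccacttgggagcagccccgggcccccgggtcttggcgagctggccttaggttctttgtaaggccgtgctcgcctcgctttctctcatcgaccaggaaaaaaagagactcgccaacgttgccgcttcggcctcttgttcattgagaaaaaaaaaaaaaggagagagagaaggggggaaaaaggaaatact
The motifs searched were the CArG box bound by serum response factor, CCGGAA as an ETS core, TGACGT as part of the cAMP response element, and TGANTCA as an AP-1 site. Dusp5 held 2 adjacent CArG boxes, at −82 to −73 and −72 to −63 counted from the RefSeq start, and the letters of TGACGT on the opposite strand at −56 to −51. A CArG box was found in 1.467% of 32851 such windows of all genes, and TGACGT in 6.469%. Etv6 held a single TGACGT at −54 to −49, and none of the 4 motifs was found in the windows of Etv5, which has 2, or of Dusp6, Spry1, Spry2 and Spred1. CCGGAA and TGANTCA occurred in 12.03% and 6.749% of all windows and in none of the members'. A match of letters is a description, and its absence says only that these letters are not in this window.

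Etv5 (ENSMUSG00000013089, chromosome 16, 22381309 to 22439719, minus strand, GRCm38), an ETS factor of the PEA3 group, was the member that stood farthest apart. Its level was 93.3, 152 and 222 CPM (lowest, median and highest of 8 libraries) in tdTom+ cells and 14.9, 22.4 and 32.7 CPM in tdTom− cells. Every tdTom+ library lay above every tdTom− library. Among all genes tested, 30.5% had ranges that did not overlap in either direction and 15.2% lay wholly higher, and because Etv5 was chosen on this contrast nothing is read from it. The log2 fold change was 2.82 (standard error 0.17), or 7.08-fold, and within mice the difference ran from 2.35 in mouse 7 to 3.20 in mouse 2, with a mean of 2.82 ± 0.34 (SD, n = 8). A log2 fold change at least as high was found in 1.54% of the genes tested. The mouse numbers of the labels fall into 3 series, mice 1 to 3, mouse 4, and mice 5 to 8, and the value was 3.03 (standard error 0.30) in the first and 2.60 (standard error 0.14) in the last, with mouse 4 at 3.14.

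The other ETS factors did not share the size of this difference. Etv4 (chromosome 11, 101769742 to 101785371, minus strand), the closest relative of Etv5 in the list, was at 23.0, 25.3 and 33.5 CPM in tdTom+ and 20.5, 29.5 and 37.5 CPM in tdTom− cells. These ranges overlapped almost fully, and the log2 fold change of −0.14 (standard error 0.11) came with a lower value in 6 of 8 mice and a higher one in mice 2 and 5. Etv6 (chromosome 6, 134035700 to 134270158, plus strand), an ETS repressor, was at 61.7, 75.5 and 85.8 CPM in tdTom+ and 50.7, 56.7 and 71.9 CPM in tdTom− cells. The ranges of Etv6 overlapped, yet the tdTom+ library was the higher in 8 of 8 mice, by 0.20 to 0.55 on the log2 scale, with a log2 fold change of 0.37 (standard error 0.07). A gene on the opposite strand, Gm17089, shares exon bases with Etv6, and the reads were counted by strand.

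**Figure D1:**
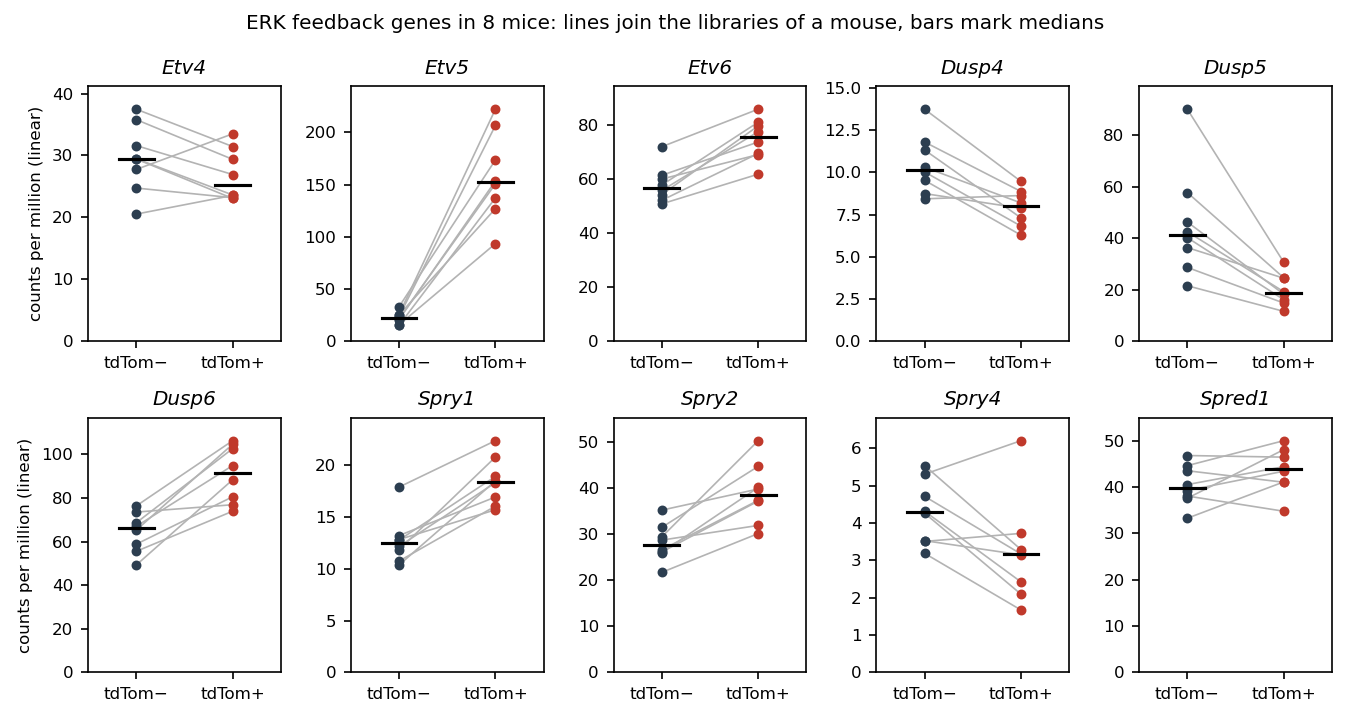
CPM (linear axis from 0) of the 10 members in tdTom− and tdTom+ libraries of 8 mice, with a line for each mouse and a bar at the median of each population. Etv5 is at 14.9 to 32.7 CPM in tdTom− and 93.3 to 222 CPM in tdTom+ libraries, while the ranges of the other 9 members overlap between populations.

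The 3 phosphatases differed in direction. Dusp6 (chromosome 10, 99263231 to 99267488, plus strand), a cytoplasmic phosphatase specific for ERK, was at 73.9, 91.6 and 106 CPM in tdTom+ and 49.2, 66.1 and 76.3 CPM in tdTom− cells. It was higher in the tdTom+ library of 8 of 8 mice, with a log2 fold change of 0.50 (standard error 0.09) and a difference within mice from 0.06 in mouse 7 to 0.84 in mouse 4. Only the tdTom+ library of mouse 3 lay within the tdTom− range of Dusp6.

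Dusp5 (ENSMUSG00000034765, chromosome 19, 53529109 to 53542431, plus strand), a nuclear phosphatase of ERK, went the other way. Its level was 11.5, 18.7 and 30.6 CPM in tdTom+ and 21.5, 41.3 and 90.2 CPM in tdTom− cells. The spread between mice was wide in both populations, with mouse 4 lowest and mouse 2 highest in each, so the ranges overlapped although the tdTom+ library was the lower in 8 of 8 mice. The log2 fold change was −1.19 (standard error 0.24), or 2.28-fold lower, and the difference within mice was −1.13 ± 0.31 (SD, n = 8), from −1.56 in mouse 2 to −0.57 in mouse 6. AC137853.2, on the opposite strand, shares exon bases with Dusp5.

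Dusp4 (chromosome 8, 34807297 to 34819894, plus strand), a nuclear phosphatase of ERK and other MAP kinases, was scarcer. It was at 6.28, 8.03 and 9.47 CPM in tdTom+ and 8.43, 10.2 and 13.8 CPM in tdTom− cells, on 97 to 450 counts in a library. The ranges of Dusp4 overlapped, 7 of 8 mice were lower in tdTom+ cells and mouse 8 was level at 0.03, with a log2 fold change of −0.40 (standard error 0.11). Summed, the 3 phosphatases were at a median of 120.2 CPM in tdTom+ against 119.9 CPM in tdTom− cells, with ranges of 96.2 to 145 and 79.4 to 177 CPM that overlapped.

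Among the inhibitors that act above ERK, Spry1 and Spry2 were the higher in tdTom+ cells in 8 of 8 mice. Spry1 (chromosome 3, 37639947 to 37644598, plus strand) was at 15.7, 18.4 and 22.4 CPM in tdTom+ and 10.4, 12.5 and 17.9 CPM in tdTom− cells, with a log2 fold change of 0.54 (standard error 0.10). The overlap of its ranges came from the tdTom− library of mouse 2 alone, which lay at 17.9 CPM where the other 7 reached 13.2. Gm42922, on the opposite strand, shares exon bases with Spry1.

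Spry2 (chromosome 14, 105891949 to 105896819, minus strand) was at 30.2, 38.6 and 50.3 CPM in tdTom+ and 21.7, 27.7 and 35.2 CPM in tdTom− cells, with a log2 fold change of 0.47 (standard error 0.10). The difference within mice was narrowest in mouse 7, at 0.15, and widest in mouse 2, at 0.77. The value was 0.65 (standard error 0.13) in mice 1 to 3 and 0.34 (standard error 0.11) in mice 5 to 8, where Spry2 was not past the threshold used for all genes.

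Spry4 and Spred1 showed no common direction. Spry4, the scarcest member, had 35 to 164 counts in a library and was at 1.67, 3.16 and 6.20 CPM in tdTom+ and 3.19, 4.29 and 5.54 CPM in tdTom− cells. It was lower in tdTom+ cells in 6 of 8 mice, by up to 0.99 on the log2 scale in mouse 5, and higher in mice 6 and 8, which gave a log2 fold change of −0.41 (standard error 0.21). Spred1 (chromosome 2, 117121374 to 117182279, plus strand), which brings the RAS inhibitor neurofibromin to the membrane, was at 34.8, 43.9 and 50.0 CPM in tdTom+ and 33.3, 39.9 and 46.8 CPM in tdTom− cells. The 2 ranges of Spred1 nearly coincided, with a log2 fold change of 0.11 (standard error 0.08) and a higher value in 5 of 8 mice.

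**Figure D2:**
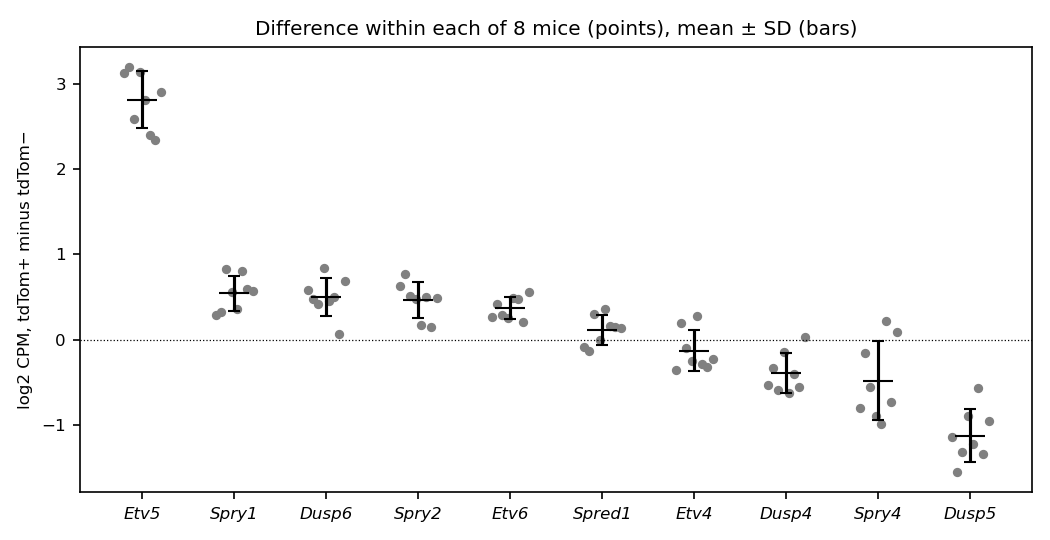
Difference in log2 CPM between the tdTom+ and the tdTom− library of each of 8 mice (points), with mean and SD (bars), for the 10 members in order of the mean. Etv5 lies at 2.35 to 3.20, Dusp5 at −1.56 to −0.57, and the points of Etv4, Dusp4, Spry4 and Spred1 lie on both sides of 0.

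Across the list, 5 members were past the threshold as higher in tdTom+ cells (Etv5, Etv6, Dusp6, Spry1 and Spry2), 2 as lower (Dusp4 and Dusp5) and 3 were not past it (Etv4, Spry4 and Spred1). In the same comparison 51% of all genes tested passed, 25.5% as higher and 25.5% as lower, and since the members were chosen on this contrast nothing is read from their count. The median log2 fold change of the members was 0.24, beside 0.00 for all genes tested. The same direction in all 8 mice was found for 6 of the 10, Etv5, Etv6, Dusp6, Spry1, Spry2 and Dusp5, beside 51.4% of all genes. The standard errors of the members and these calls are from fits without a mouse term, in which Dusp4 no longer passed without mouse 5 or without mouse 7. With the mouse as a block over all 8 mice Dusp4 passed, with a standard error of 0.09 against 0.11.

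Levels of different genes were compared per kilobase of exon (CPM divided by exon length, RPKM). In tdTom− cells the members ran from Dusp6, with a median of 23.6 RPKM, through Dusp5 (16.7), Spry2 (13.3), Etv4 (9.49), Etv6 (9.48), Spred1 (5.88), Etv5 (5.45), Spry1 (4.29) and Dusp4 (3.71) to Spry4 (0.935). Neighbours in this order overlapped in their ranges over 8 libraries except between Etv6 and Spred1 and between Dusp4 and Spry4. In tdTom+ cells Etv5, which was at place 7 in tdTom− cells, was at place 1 with 37.1 RPKM (22.7 to 54.2), and its range overlapped that of Dusp6 at 32.8 RPKM (26.4 to 38.0).

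Below those came Spry2 (18.5 RPKM), Etv6 (12.6), Etv4 (8.14), Dusp5 (7.55), Spred1 (6.47), Spry1 (6.34), Dusp4 (2.93) and Spry4 (0.688) in tdTom+ cells. Here the ranges of neighbours did not overlap between Dusp6 and Spry2, Spry2 and Etv6, Spry1 and Dusp4, or Dusp4 and Spry4. Dusp5 was at place 2 in tdTom− and place 6 in tdTom+ cells, and the other 8 members were within 1 place of their rank in tdTom− cells.

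**Figure D3:**
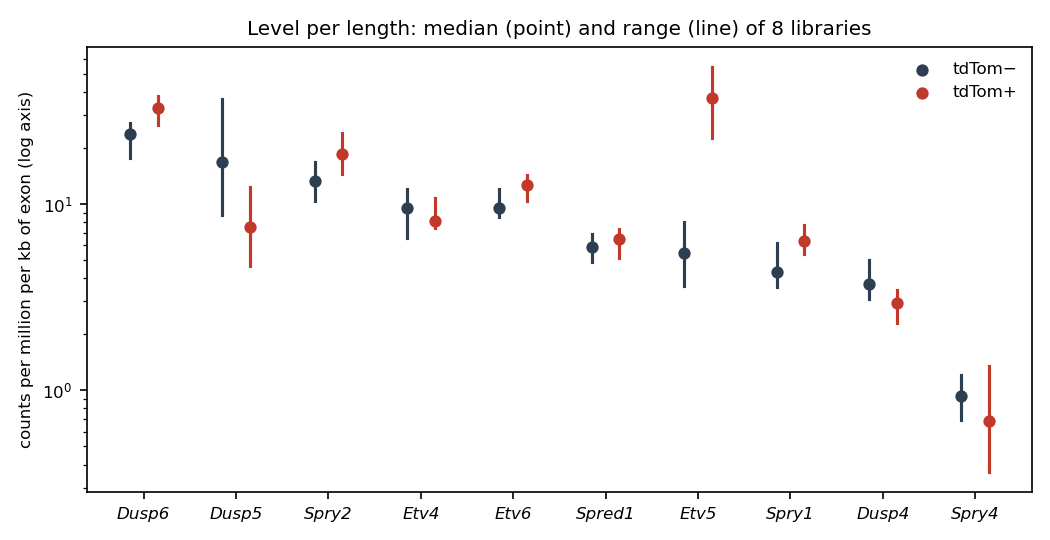
Level of each member per kilobase of exon (log axis), as the median (point) and range (line) of 8 libraries of each population, ordered by the tdTom− median. Dusp6 leads in tdTom− cells at 23.6 RPKM, Etv5 in tdTom+ cells at 37.1 RPKM, and Spry4 is lowest in both at 0.935 and 0.688 RPKM.

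Whether the members moved with Etv5 from mouse to mouse within a population is a question the choice of members did not use. Over the 8 mice of each population, log2 CPM of Etv5 was correlated with that of each other member, 18 relations in all, with exact permutation tests adjusted over the 18. None passed an adjusted p of 0.05 by Pearson's r or by Spearman's rho, and 4 had an unadjusted p under 0.05 by r and 1 by rho. The highest values of r were 0.82 with Etv4 in tdTom− cells (rho 0.64, exact permutation p = 0.0148 for r and 0.0962 for rho, adjusted p = 0.133 and 0.346) and 0.81 with Dusp4 in tdTom+ cells (rho 0.81, exact permutation p = 0.0137 and 0.0218, adjusted p = 0.133 and 0.346).

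Without the 2 mice farthest from the median of Etv5, r was 0.59 for Etv4 and 0.44 for Dusp4. Without mouse 1, the relation of Etv5 with Etv6 in tdTom+ cells passed (r = 0.93, exact permutation test, adjusted p = 0.0357), where r over all 8 mice was 0.76 (adjusted p = 0.165). With Dusp6, the phosphatase nearest to Etv5 in level in tdTom+ cells, r was 0.57 in tdTom+ and 0.04 in tdTom− cells (exact permutation p = 0.141 and 0.929, adjusted p = 0.506 and 0.929), with rho at 0.48 and 0.07. The series of mouse numbers hold too few mice for a value within each.

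The genes whose pattern was most like that of Etv5, taken as the highest Pearson's r of log2 CPM over the 16 libraries after the mean of each population was subtracted, came from 11642 genes with a mean of at least 5 CPM. They were Txndc5 (r = 0.93), a protein disulfide isomerase of the endoplasmic reticulum, Kcnh3 (0.92), a potassium channel, Ppp2r1b (0.90), a scaffold subunit of protein phosphatase 2A, Tmed9 (0.88), a cargo receptor of the early secretory pathway, and Ripor1 (0.87). Each was also higher in the tdTom+ library of 8 of 8 mice, with log2 fold changes from 0.59 for Ripor1 to 3.26 for Kcnh3. The values are a ranking within these libraries and carry no test. The libraries differ in depth, and each of the 8 mice gave a tdTom+ and a tdTom− library.

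Dusp5 and Spry2 varied between mice with another set of genes. Immediate early genes such as Fos, Jun and Egr1 are switched on within minutes by many stimuli, ERK activation and the handling of cells among them, and 11 of them were summed in each library. The sum ran from 2304 CPM in mouse 4 to 5780 CPM in mouse 2 in tdTom+ cells, and from 2614 CPM in mouse 4 to 6887 CPM in mouse 2 in tdTom− cells, the same mice that were lowest and highest for Dusp5. Of its genes tested, 1 of 10 was past the threshold, Zfp36, which binds AU-rich messages (log2 fold change −0.63, standard error 0.19, adjusted p = 0.0060, edgeR), and it did not pass in 8 of 16 alternatives. With the mouse as a block 6 of 10 were lower in tdTom+ cells, and Zfp36 was at −0.61 (standard error 0.055, adjusted p = 2.34e-08, edgeR).

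The relation of each member to this sum was added after the data were seen, 20 relations in all with exact permutation tests adjusted over the 20. Dusp5 passed in tdTom+ cells (r = 0.92, exact permutation p = 0.00144, adjusted p = 0.0144) and in tdTom− cells (r = 0.93, exact permutation p = 0.0035, adjusted p = 0.0233), and Spry2 passed in tdTom+ cells (r = 0.91, exact permutation p = 0.00122, adjusted p = 0.0144). By rank none passed, with rho at 0.88, 0.69 and 0.83 (exact permutation p = 0.00724, 0.0694 and 0.0154, adjusted p = 0.145, 0.347 and 0.154). Without the 2 mice farthest from the median of the sum, r was 0.80, 0.80 and 0.73 for the same 3 relations.

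These relations rest in part on mouse 2, the highest in the sum, since without it none of the 20 passed, with the 3 at an r of 0.86 to 0.90 and adjusted p = 0.108, 0.140 and 0.108 (exact permutation test) for Dusp5 in tdTom+, Dusp5 in tdTom− and Spry2 in tdTom+ cells. Dusp5 in tdTom+ cells passed with any other mouse left out, Spry2 in tdTom+ cells failed without mouse 7 as well, and Dusp5 in tdTom− cells failed without mouse 4, 5 or 6 as well. Spry2 in tdTom− cells had r = 0.77 (rho 0.76, exact permutation p = 0.0266 and 0.0368, adjusted p = 0.110 and 0.245). Etv5 did not follow the sum, at r = −0.26 in tdTom+ and −0.40 in tdTom− cells (rho −0.26 and −0.10, exact permutation p = 0.542 and 0.326 for r and 0.536 and 0.840 for rho, adjusted p = 0.638 and 0.544 for r and 0.894 and 0.935 for rho). The part that the sort or the handling of a mouse's cells plays in the level of Dusp5 and Spry2 was not tested. The sum was lower in the tdTom+ library of 8 of 8 mice, by 0.11 in mouse 6 to 0.55 in mouse 5 on the log2 scale.

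**Figure D4:**
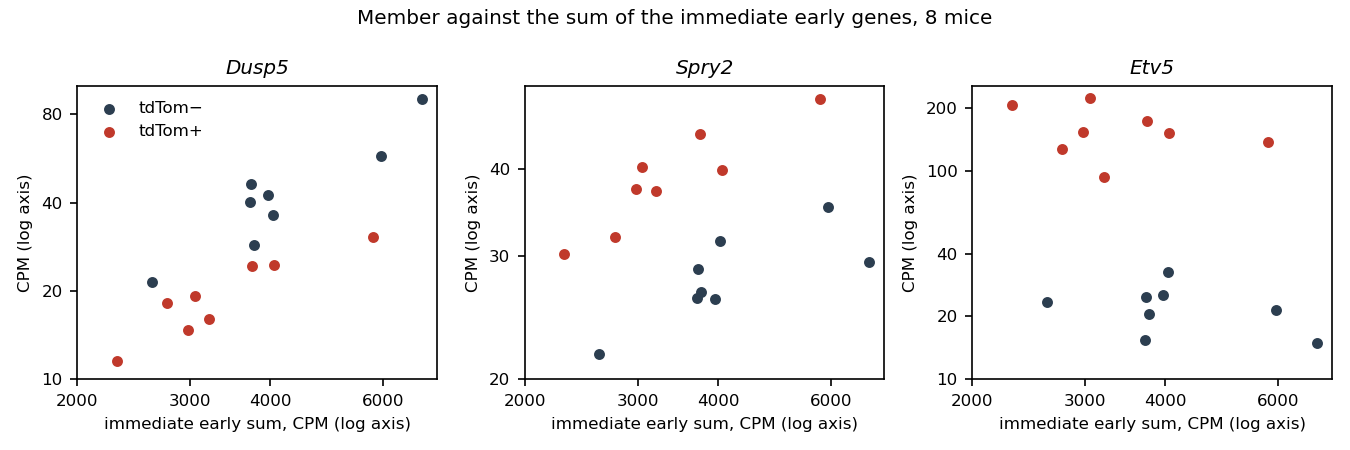
Level of Dusp5, Spry2 and Etv5 (CPM, log axis) against the summed CPM of 11 immediate early genes (log axis) in the tdTom− and tdTom+ library of each of 8 mice. Dusp5 runs with the sum in both populations (r = 0.92 in tdTom+ and 0.93 in tdTom− cells), Spry2 in tdTom+ cells (r = 0.91), and Etv5 does not (r = −0.26 and −0.40). None of these relations passed by rank or without mouse 2, and they were added after the data were seen.

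The genes around the members were taken from 5 lists with 76 genes in all, of which 73 were tested. Past the threshold, 16 were higher and 34 lower in tdTom+ cells, 68.5% together beside 51% of all genes tested. The median log2 fold change was −0.17 beside 0.00. In mice 1 to 3 only, 8 were higher. Over all genes tested 25.5% passed as higher and 25.5% as lower, and nothing is read from a split in direction. These lists were drawn up with earlier results of the data known and were not tested as sets.

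Of 10 close relatives of the members tested, 2 were higher and 5 lower, beside 25.5% of all genes each way, with a median of −0.22. Dusp7, a cytoplasmic phosphatase of ERK in the same subgroup as Dusp6, rose from a median of 6.55 to 22.0 CPM (log2 fold change 1.67, standard error 0.11, higher in 8 of 8 mice, adjusted p = 4.63e-11, edgeR). Dusp10, a phosphatase of p38 and JNK (−1.28, standard error 0.21, adjusted p = 1.79e-05, edgeR), and Spred3 (−1.49, standard error 0.24, adjusted p = 2.14e-05, edgeR), a relative of Spred1, fell in 8 of 8 mice. Dusp8 passed by a small margin at 0.47 (standard error 0.15, adjusted p = 0.0085, edgeR) and did not pass in 9 of 16 alternatives. With the mouse as a block Dusp8 was at 0.48 (standard error 0.08, adjusted p = 4.12e-05, edgeR). Phosphatases passed in both directions among the relatives, as did genes over all genes tested, and nothing is read from this.

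In the RAS-ERK cascade itself, 6 of 24 genes were higher and 10 lower, beside 25.5% of all genes each way, with a median of −0.03. The extremes were Mknk2, a kinase that ERK activates (1.13, standard error 0.07, adjusted p = 4.37e-12, edgeR), and Ksr1, a scaffold for RAF, MEK and ERK, which was at a median of 8.67 CPM in tdTom+ against 30.6 CPM in tdTom− cells (−1.86, standard error 0.10, adjusted p = 7.10e-13, edgeR). Mknk1, the relative of Mknk2, was at 0.49 (standard error 0.08, adjusted p = 3.33e-05, edgeR) and the ERK substrate kinase Rps6ka3 at −0.64 (standard error 0.08, adjusted p = 1.30e-06, edgeR), each with 1 direction in 8 mice.

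Of 12 receptors upstream, 4 were higher and 5 lower, beside 25.5% of all genes each way, with a median of −0.31. Kit, the receptor of stem cell factor, was at a median of 323 CPM in tdTom+ against 33.6 CPM in tdTom− cells (log2 fold change 3.33, standard error 0.10, adjusted p = 5.34e-16, edgeR), and Fgfr3 followed at 1.97 (standard error 0.08, adjusted p = 8.61e-15, edgeR). Erbb2, the co-receptor of the EGF receptor family, fell by 1.30 on the log2 scale (standard error 0.07, adjusted p = 1.15e-12, edgeR) and Fgfr4 fell by 1.03 (standard error 0.08, adjusted p = 5.94e-10, edgeR). All 4 had ranges that did not overlap between populations, beside 30.5% of all genes tested. They were named for their large fold changes, so nothing is read from this.

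Other inhibitors at the receptor and RAS level gave 2 higher and 6 lower of 11 tested, with a median of −0.34. Of all genes, 25.5% passed each way. The 2 that rose, Lrig3 (0.93, standard error 0.08, adjusted p = 1.66e-09, edgeR) and Lrig1 (0.43, standard error 0.07, adjusted p = 1.84e-05, edgeR), are transmembrane proteins of the same family. Errfi1, a feedback inhibitor of EGF receptors (−1.25, standard error 0.17, adjusted p = 1.83e-06, edgeR), and Il17rd, also called Sef, an inhibitor of FGF signalling (−1.14, standard error 0.17, adjusted p = 7.67e-06, edgeR), fell in 8 of 8 mice.

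Of 16 further output genes of ERK, 2 were higher and 8 lower, beside 25.5% of all genes each way, with a median of −0.30. The ETS factors Elk3 (0.97, standard error 0.13, adjusted p = 2.73e-06, edgeR) and Ets2 (0.45, standard error 0.07, adjusted p = 9.31e-06, edgeR) rose. Emp1, an epithelial membrane protein, was at a median of 29.6 CPM in tdTom+ against 733 CPM in tdTom− cells (−4.51, standard error 0.25, adjusted p = 2.81e-12, edgeR), and Fosl1, an AP-1 subunit, at 0.750 and 6.32 CPM (−2.89, standard error 0.35, adjusted p = 4.68e-07, edgeR). For both, every tdTom+ library lay below every tdTom− library, beside 15.3% of all genes tested that lay wholly lower. Both were named for their large fold changes, so nothing is read from this. Fosl1 was scarce, with fewer than 10 counts in at least 1 library. In mice 1 to 3 only, Elk3, Ets2, Mknk1 and Spred3 kept their direction and did not pass.

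**Figure D5:**
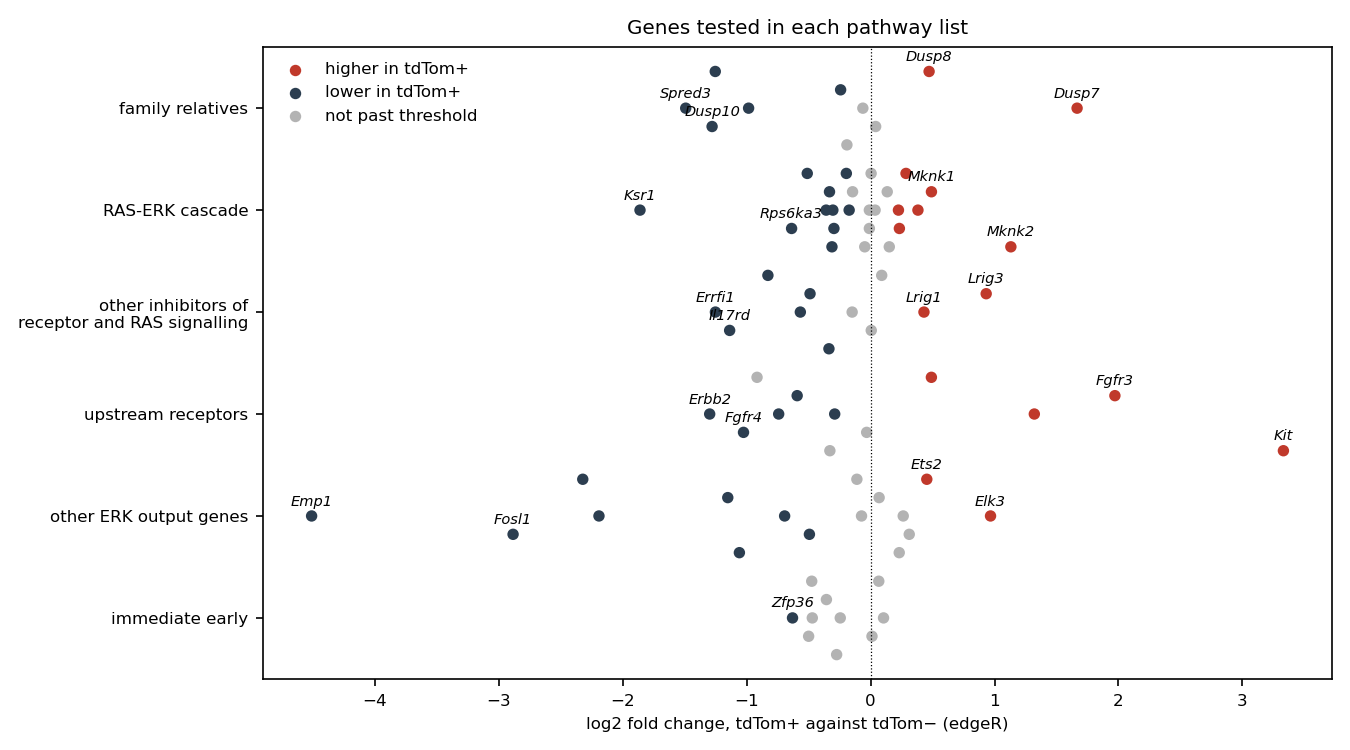
Log2 fold change (tdTom+ against tdTom−, edgeR) of each gene tested in 5 pathway lists and in the immediate early genes, coloured by whether it passed an adjusted p of 0.01 as higher or lower, with the named genes marked. Each of the 5 pathway lists holds genes on both sides, from Emp1 at −4.51 to Kit at 3.33. Of the 10 immediate early genes tested, 1 passed in this fit without a mouse term. With the mouse as a block 6 passed as lower.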

How the data were processed

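RNA of EpCAM+ tdTom+ and EpCAM+ tdTom− colon cells of 8 mice was sequenced from stranded mRNA libraries. The authors aligned the reads to GRCm38 with TopHat2 2.1.1 (build GRCm38.p3 and Subread 1.5.2 per the labels, featureCounts 1.5.0-p1 per the file headers) and deposited raw read counts per gene, on exons and by strand, without normalization. Tamoxifen at 1 mg per day on 3 days is given both by the labels and by the study's methods for the secretory signature, which this comparison defines, while the general methods on sequencing describe an injection on the day before collection. Symbols came from GENCODE M21 for 44585 of 45513 genes.

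The deposited counts were tested in R 4.3.3 with edgeR 4.0.16 (low counts removed by filterByExpr, TMM factors, glmQLFit, glmQLFTest, no mouse term, Benjamini-Hochberg adjusted p under 0.01). The authors used DESeq2 1.14.1 per the labels. Log2 CPM used a prior count of 2. Standard errors were derived from the fold change and the F statistic. Groups and mouse numbers were read from the labels. Libraries of a mouse deviated together from their population means (correlation across genes 0.22 to 0.41, and at most 0.17 between different mice), so the numbers pair them. No libraries agreed within sampling noise. At this depth 3 counts are 0.0655 to 0.182 CPM, and such floors cover counting error only. On counts simulated for this comparison with 200 of 15737 genes changed by 1 or 2 on the log2 scale, 193 were recovered with 1 false call. With the mouse as a block 190 were recovered with 7 false calls. Smaller changes, and a share as large as the 51% of genes that passed here, were not simulated. The recovery therefore says nothing about them.

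The members and lists were chosen with earlier results of these data known. Named were the members, Atoh1, the 2 genes per list and direction with the largest fold change among those past the threshold with 1 direction in 8 mice, and the 5 most like Etv5. The exact permutation tests of Pearson's r and Spearman's rho used scipy 1.17.1 in Python 3.11.15. Alternatives were the mouse as a replicate block, DESeq2 1.42.0, RLE and upper-quartile normalization, other filters, an adjusted p of 0.05, each mouse left out, and mice 1 to 3 or 5 to 8 only. Small intestinal samples are not analysed here.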

Additional observations from a re-analysis of the deposited data

Results flagged for a closer look

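Of 76 groups of 8 libraries compared, 5 held a library far from the other 7 by Dixon's criterion, where about 3.8 are expected by chance. Spry1 was at 4.17 log2 CPM in the tdTom− library of mouse 2, against 3.39 to 3.74 in the others. Mknk2 was at 8.73 log2 CPM in the tdTom+ library of mouse 4, against 8.44 to 8.57. Kit was at 8.63 log2 CPM in the tdTom+ library of mouse 1, against 8.14 to 8.37. Erbb2 was at 8.44 log2 CPM in the tdTom− library of mouse 2, against 7.95 to 8.18. For mouse 4, the total count of the tdTom− library was 45791503, where the other 7 lay between 18318172 and 20668605.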

How the results depend on the processing

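Each of the 160 log2 fold changes that the 10 members took under the alternatives moved by less than the spread between mice, and none changed sign. Of 351 values of the other named genes, 330 gave the same call and 21 fell short of the threshold without a change of sign. In mice 1 to 3 only, 2 members were higher (Etv5 and Spry2) and 1 lower (Dusp5), 8 genes of the 5 pathway lists were higher, and 2546 and 2559 of all genes were higher and lower. That fit held 3 of the 8 mice. In mice 5 to 8 only, 4 members were higher (Etv5, Etv6, Dusp6 and Spry1, without Spry2) and 1 lower (Dusp5). With each mouse left out in turn, members lower ranged from 1 to 2, all genes higher from 3670 to 4177 and lower from 3700 to 3914, relations of Etv5 from 0 to 1 and relations with the immediate early sum from 0 to 3.

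With the mouse as a replicate block, the paired fit gave the same 5 members as higher and the same 2 as lower, 17 and 36 genes of the pathway lists and 4494 and 4574 of all genes. It changed the call of no named gene. At 35 to 164 counts in a library, Spry4 had the widest standard error of the members in the paired fit, at 0.15, against 0.09 for Dusp5. Without a mouse term Spry4 was second to Dusp5, at 0.21 and 0.24.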
